A study of Mus musculus with 12 samples.

Results

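Gr1- cells sorted from GL261 gliomas in the mouse brain were set against Gr1- cells from the blood of mice bearing the same tumors, 2 of the 12 arrays of the series. The comparison was chosen by the sample labels alone, and it is the log2 value of each of 19938 genes on the tumor brain Gr1- array minus its log2 value on the tumor blood Gr1- array. Both arrays came from C57BL/6 mice aged 7 weeks that had received GL261 cells, a mouse glioma line that grows in this strain, and that were killed 2 weeks later. The labels name no altered allele and no drug for either group. The other 10 arrays held Gr1+ cells from tumor brain and from tumor-bearing mice's blood, microglia (MG, CD11b+ cells with low CD45) and macrophages (MP, CD11b+ cells with high CD45) from tumor and normal brains, and macrophage populations of the blood, called high and low, each with and without a tumor. Tumor tissue was minced and digested with trypsin before sorting, and RNA was amplified in more than a single cycle. Neither the other antibodies of the Gr1- gate nor the number of mice behind an array is given in the sources used here. Each condition had 1 array, so no replicate error exists, no difference could be tested, and the number of arrays limits the precision of every value.

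Gr1 is the name of an antibody epitope carried by Ly6G on neutrophils and, more weakly, by Ly6C on monocytes, so a Gr1- gate keeps the other leukocytes. In a glioma these can be microglia, the resident phagocytes of the brain, and also macrophages, dendritic cells, natural killer (NK) cells, which kill target cells with perforin and granzymes, and T and B lymphocytes. In the blood, B cells, T cells, NK cells and the monocytes with little Ly6C would be expected behind such a gate, and microglia would not. In bulk RNA of this kind, fewer cells of a type and less RNA per cell cannot be told apart.

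Background was read from 1027 olfactory receptor genes, which leukocytes do not normally use, as the value that 95% of them did not exceed on an array. It was a log2 value of 8.93 on the tumor brain Gr1- array and 9.03 on the array labelled tumor blood Gr1-, and 39.1% and 37.7% of genes lay above it on these arrays. Any value under 8.93 or 9.03 on the array concerned is below background, also where the text does not repeat it. For some of these genes the difference is also given as a bound, with the dim value raised to the background of its array. As a yardstick that is not a replicate error, the log2 differences of the olfactory receptor genes had an SD of 0.43 and a median of -0.19, and 5 of them (0.487%) were at least 2-fold higher and 37 (3.6%) at least 2-fold lower.

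The labels were checked against cell type genes before any direction was read, and the array labelled blood carried genes of brain cells. P2ry12, a purinergic receptor of microglia, had a log2 value of 11.41 on the tumor brain Gr1- array and 11.03 on the array labelled tumor blood Gr1-, against 7.09 to 7.67 on the 4 blood macrophage arrays. All 31 measured microglial genes lay above background on the brain array and 30 of them on the array labelled blood, while 1 to 8 did so on the blood macrophage arrays. The array labelled blood also carried genes of glia and neurons at higher values than the brain array. Mbp, a structural protein of myelin, was at 9.65 on the brain array and 11.49 on the array labelled blood, where the 4 blood macrophage arrays gave 6.86 to 8.96, each below background. The array labelled tumor blood Gr1+ also had Mbp at 11.16, with 17 of the 31 microglial genes above background. Across the 10376 genes above background on at least 1 array, Pearson's r of the array labelled tumor blood Gr1- was 0.951 with tumor MP, 0.928 with tumor MG and 0.919 with tumor brain Gr1-, against 0.588 and 0.527 with tumor blood macrophage high and low. These coefficients run across genes, which are not independent replicates. Every difference below is therefore a difference from the array labelled tumor blood Gr1-, not one from cells known to have circulated. The main lists are also given against tumor MP. Both comparisons use the same tumor brain Gr1- array, and tumor MP had the r of 0.951 above with the array labelled blood. Like results from both are therefore not independent.

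Of the antigens of the gate, Ly6G was read here and Ly6C was not. Ly6g, the neutrophil antigen seen by Gr1 antibodies, was below background on both arrays, at 6.02 on the tumor brain Gr1- array and 6.54 on the array labelled tumor blood Gr1-. Of 18 neutrophil genes, Csf3r alone lay above background on either array, at 11.39 and 11.03, and 12 to 13 of the list did on the arrays of blood Gr1+, tumor blood macrophage high and normal MP cells. On tumor brain Gr1+ only 3 did, so in tumor brain these neutrophil genes hardly separate the Gr1- from the Gr1+ gate. Monocyte genes did differ there. Of 14, 13 lay above background on tumor brain Gr1+ and 6 on tumor brain Gr1-, with medians of 11.35 and 8.63. Ptprc, which encodes CD45, was at 12.12 on the brain array and 11.93 on the array labelled blood, and Itgam, which encodes CD11b, at 12.83 and 12.65.

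Few genes separated the arrays. Among all 19938, 109 (0.547%) were higher by 2-fold or more and 487 (2.44%) at least 2-fold lower on the tumor brain Gr1- array, together 2.99%, and 97.0% lay within 2-fold. Many of these were dim, and 51 of the higher and 373 of the lower genes were below background on both arrays. Among the 8452 genes above background on at least 1 of the arrays, 58 (0.686%) were higher and 114 (1.35%) lower, together 2.04%, with a median log2 difference of 0.051, against -0.061 over all genes. The split of the called genes moved with the scaling, and 18.3% of them were higher as deposited, 27% with arrays centred on their medians, 34.5% after quantile normalization and 35.5% after cyclic loess normalization. Of the 58 higher genes 27 belonged to one of 27 lists of cell type and pathway genes, led by immediate early genes with 6 and by NK cell receptors and by chemokines and cytokines with 4 each. Of the 114 lower genes 25 did, led by B cell genes with 8 and astrocyte genes with 5.

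**Figure D1:**
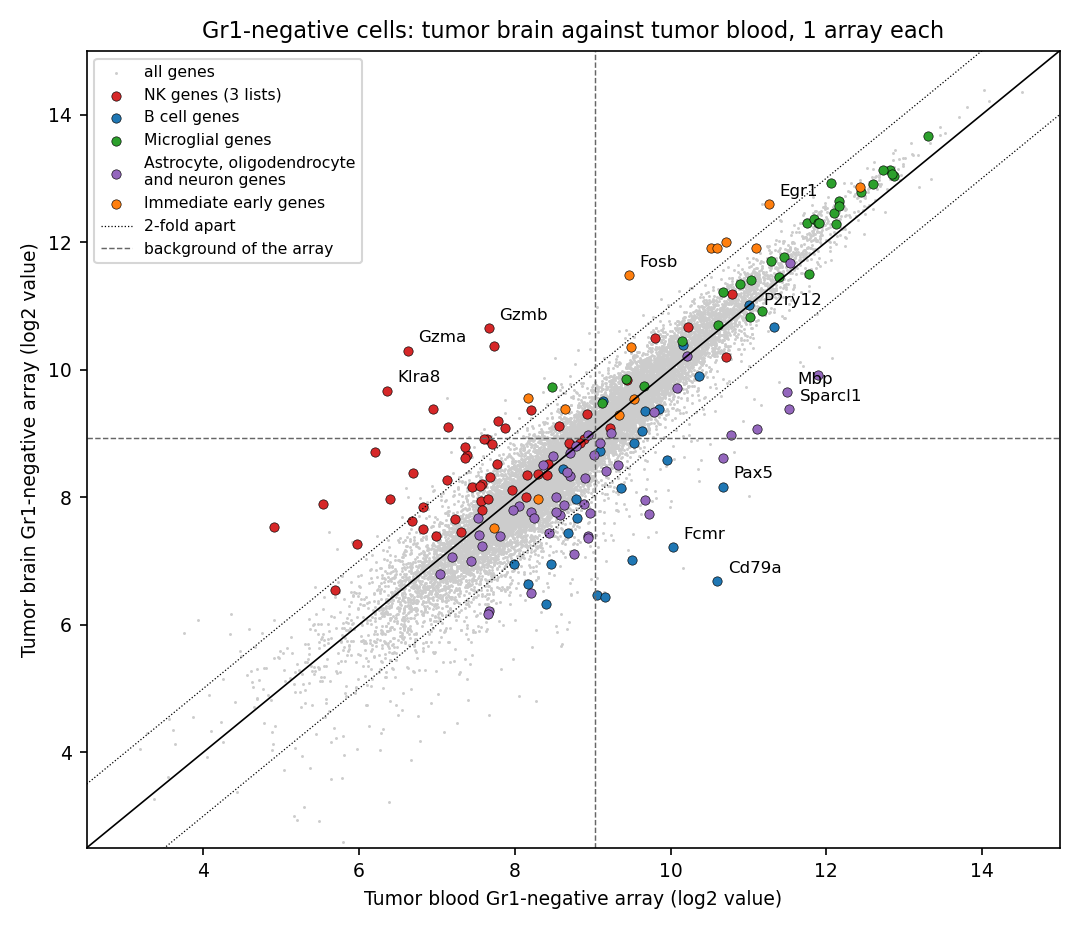
Log2 value of each of 19938 genes on the tumor brain Gr1- array (vertical axis) against the array labelled tumor blood Gr1- (horizontal axis), with the solid line at equal values, dotted lines 2-fold apart, dashed lines at the background of each array and 5 groups of listed genes in color. Gzma (10.30 and 6.63) lies above the band with 23 of 55 NK genes in all. Cd79a (6.68 and 10.60) lies below it with 14 of 26 B cell genes in all, as do 16 of 49 astrocyte, oligodendrocyte and neuron genes. Of the genes outside the band, 9 NK, 8 B cell, 5 astrocyte, 2 oligodendrocyte and 1 neuron genes are above background on at least 1 array. Of all genes, 0.547% lie above the band and 2.44% below it. The other genes of these groups lie inside the band, and microglial genes follow the diagonal at the bright end.

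The genes with the largest positive differences encode granule proteases and receptors of NK cells. Gzma, a serine protease of cytotoxic granules, had a log2 value of 10.30 on the tumor brain Gr1- array, against 6.63 on the array labelled tumor blood Gr1-. Its difference of 3.67 was the largest of the genes above background on either array, and it is at least 1.27 when the dim array is set at background. The related protease Gzmb was at 10.65 on the brain array, against 7.67 on the array labelled blood, a difference of 2.98 and of at least 1.62. Nkg7, a membrane protein of the same granules, was at 9.19 against 7.78. Prf1, the pore-forming protein perforin, was at 8.83 and 7.71, below background on both arrays, so its difference of 1.12 carries little information. The list of 15 cytotoxic granule and effector genes had 7 members higher by 2-fold or more and 0 lower, against 0.547% and 2.44% of all genes, and 3 of these 7 lay above background. The median of the list was 0.75, or 0.39 over 5 genes with dim values raised to background, 2 of them 2-fold higher.

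Promoters are printed here for those higher NK genes that hold a short motif of the RUNX transcription factors, whose member RUNX3 acts in the development of cytotoxic lymphocytes, so that the letters can be read beside the values. The sequences are from RefSeq on the GRCm38.p6 build and run 5′ to 3′ on the strand of the gene, from 250 bases before its start to 50 bases after it. Capitals mark TGTGGT or its reverse complement ACCACA. Gzma lies at chr13:113100932-113101231 on the minus strand, Gzmb at chr14:56262285-56262584 on the minus strand, Klrb1c at chr6:128788592-128788891 on the minus strand and Nkg7 at chr7:43436888-43437187 on the plus strand.
Gzma: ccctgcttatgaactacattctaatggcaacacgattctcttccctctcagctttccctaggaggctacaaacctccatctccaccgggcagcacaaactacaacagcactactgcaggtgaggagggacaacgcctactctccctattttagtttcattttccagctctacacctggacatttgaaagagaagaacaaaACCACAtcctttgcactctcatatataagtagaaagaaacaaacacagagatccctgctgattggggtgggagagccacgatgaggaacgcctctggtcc
Gzmb: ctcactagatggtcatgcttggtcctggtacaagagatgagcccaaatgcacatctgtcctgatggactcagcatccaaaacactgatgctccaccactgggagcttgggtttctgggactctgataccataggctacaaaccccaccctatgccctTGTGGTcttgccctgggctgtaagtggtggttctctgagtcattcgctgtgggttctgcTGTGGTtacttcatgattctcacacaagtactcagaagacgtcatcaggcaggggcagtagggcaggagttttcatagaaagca
Klrb1c: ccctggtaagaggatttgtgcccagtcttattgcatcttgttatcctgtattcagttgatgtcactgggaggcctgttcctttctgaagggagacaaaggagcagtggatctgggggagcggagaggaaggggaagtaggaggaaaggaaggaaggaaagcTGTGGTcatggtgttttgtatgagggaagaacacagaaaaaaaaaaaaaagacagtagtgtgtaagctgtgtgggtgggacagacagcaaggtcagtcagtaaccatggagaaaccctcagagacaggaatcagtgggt
Nkg7: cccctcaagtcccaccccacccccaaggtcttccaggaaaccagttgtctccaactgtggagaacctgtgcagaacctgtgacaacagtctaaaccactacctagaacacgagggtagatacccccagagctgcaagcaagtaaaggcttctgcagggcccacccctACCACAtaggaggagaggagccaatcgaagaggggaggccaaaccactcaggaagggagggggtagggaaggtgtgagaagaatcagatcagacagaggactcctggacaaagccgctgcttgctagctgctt
TGTGGT, searched on both strands, was found in 16.9% of the 27025 promoters of the same length. Among the 55 measured genes of the 3 NK lists, 46 had a promoter in the table and 21 of these (45.7%) held it. Of the 9 NK genes that were 2-fold higher and above background, 6 had a promoter and the 4 printed ones held the motif. In 20 promoters of B cell genes, 4 held it. A match is a description of these letters and not a bound site, and the motif was chosen with the values known.

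NK cell receptors showed the same direction. Klra8, the activating receptor Ly49H, had a log2 value of 9.67 on the tumor brain Gr1- array, against 6.36 on the array labelled tumor blood Gr1-, a difference of 3.31 and of at least 0.64. Klri2, a lectin-like receptor, was at 10.37 against 7.73, a difference of 2.64 and of at least 1.35. Klrb1c, which carries the NK1.1 antigen used to sort NK cells of this strain, was at 9.38 against 6.95, and Klrd1, the CD94 chain that pairs with NKG2 receptors, at 9.36 against 8.20. Both were below background on the array labelled blood, with differences of at least 0.35 and 0.33. Of 22 measured receptor genes, all 22 had positive differences and 10 were at least 2-fold higher, 4 of them above background, against 0.547% of all genes, with a list median of 0.81. With dim values raised to background, 1 of the 7 genes then left was 2-fold higher and the median was 0.39. Ncr1, the natural cytotoxicity receptor NKp46, was below background on both arrays at 8.71 and 6.21, and so was Klrc1, at 7.53 and 4.91. Klra1, Klra4, Klra7 and Klra9 had no probe set with a single gene symbol, and probe sets of this family of near-identical genes can share signal, so the values of single Klra genes are uncertain.

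Receptors and regulators that NK cells need for cytokine signals gave smaller differences or lay close to background. Il2rb, the chain shared by the receptors for IL-2 and IL-15, was at 9.10 on the brain array, against 7.14 on the array labelled blood, a difference of 1.96 and of at least 0.068. Il12rb2, a chain of the IL-12 receptor, was at 9.08 against 7.87. Stat4, which carries the IL-12 signal and was named after its value was seen, was at 9.87 against 8.37. Eomes, a transcription factor of NK cell maturation, was below background on both arrays, at 8.37 and 6.69. Runx3 was at 10.20 on the brain array, against 10.71 on the array labelled blood. Of the 18 genes of this list, 6 were at least 2-fold higher, 2 of them above background, 0 were lower, against 0.547% and 2.44% of all genes, and the median was 0.66. It was 0.068 over the 5 genes above background on either array with dim values raised to it, where 0 remained 2-fold higher.

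The NK signal of the tumor brain Gr1- array lay between that of other arrays. Each of the 9 NK genes called above background ranked 3 of 12 there, below tumor blood macrophage low and normal blood macrophage high. These ranks take no account of background, which was 10.09 on normal blood macrophage high. The median of the receptor genes on that array was 10.02, so a higher rank there can come from a value below background. Gzma was at 12.91 on the tumor blood macrophage low array and 12.58 on normal blood macrophage high, and at 6.24 to 7.92 on the other 8 arrays set beside both. Over the 17 NK genes above background on the tumor brain Gr1- array, its values differed from those of tumor blood macrophage low by a median of -2.61 on the log2 scale, with a range of -3.97 for Klra3 to -0.34 for the granzyme Gzmm. Of the 22 receptor genes, 7 lay above background on the tumor brain Gr1- array, 2 on the array labelled tumor blood Gr1-, 19 on tumor blood macrophage low and 9 on normal blood macrophage high, and 0 to 3 on the other 8. Set against tumor MP in place of the array labelled blood, 11 receptor genes were at least 2-fold higher and the list median was 0.94. Of all 19938 genes, 140 were at least 2-fold higher than on tumor MP.

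**Figure D2:**
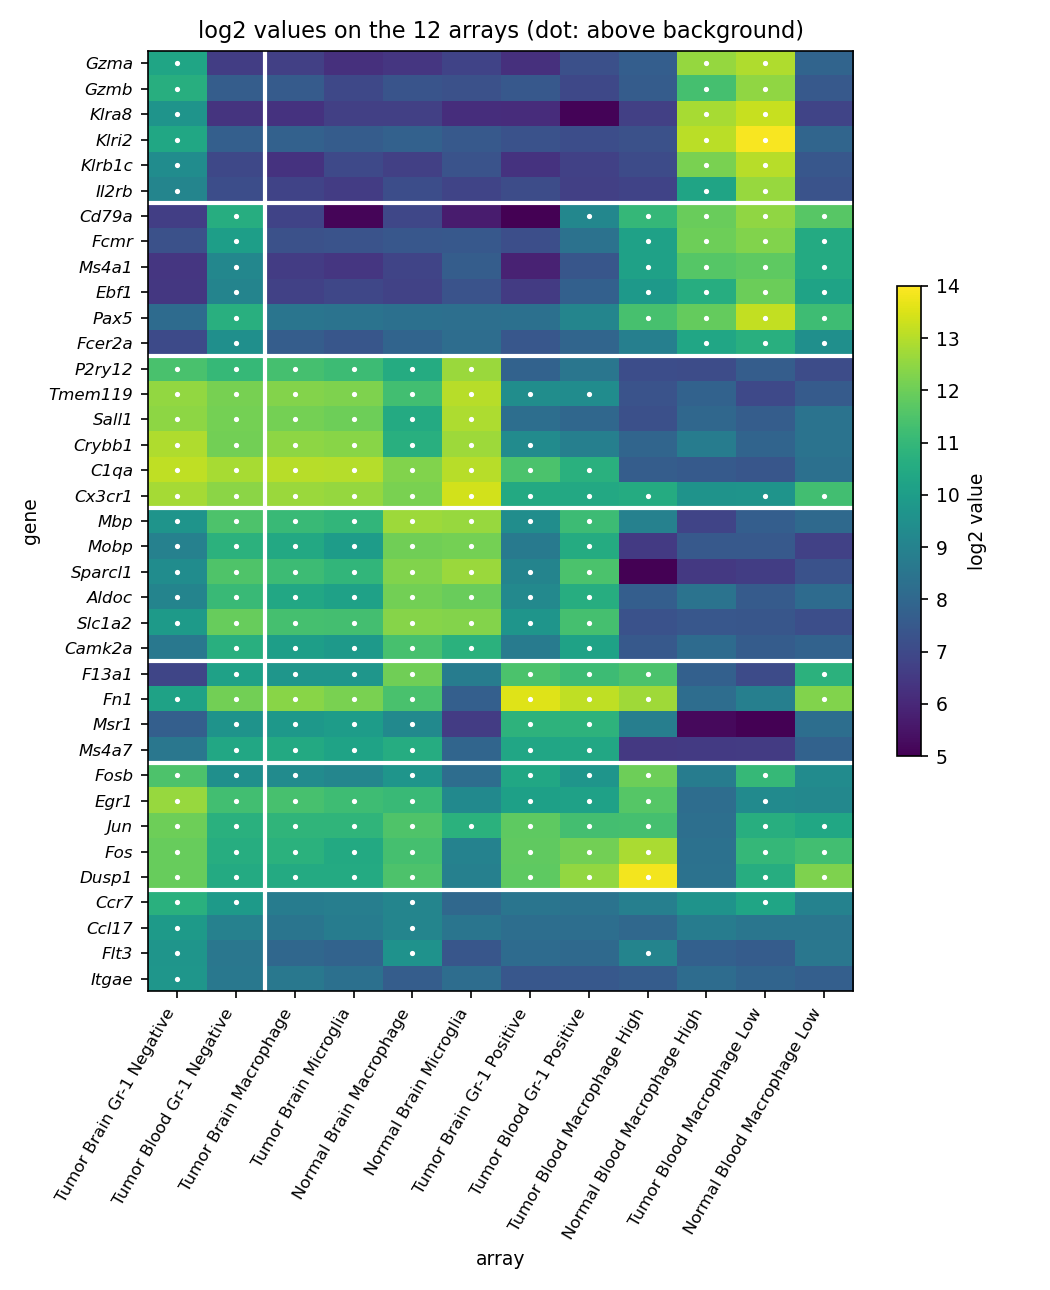
Log2 values (color) of genes of 7 groups, namely NK, B cell, microglial, glial and neuronal, monocyte and macrophage, immediate early and dendritic cell genes (vertical axis), on the 12 arrays (horizontal axis), with the tumor brain Gr1- array and the array labelled tumor blood Gr1- left of the white line and a dot where a value is above the background of its array. Gzma is above background on the tumor brain Gr1- array and on 2 blood macrophage arrays, and Cd79a is above it on the array labelled tumor blood Gr1-, on tumor blood Gr1+ and on the 4 blood macrophage arrays.

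T cell genes mostly lay within 2-fold, as did 97.0% of all genes. Of 23 measured members, Icos was the only one at least 2-fold apart, and the list median was -0.0062, which ranged from -0.0062 to 0.091 over the scalings tried. Icos, a costimulatory receptor of activated T cells that innate lymphoid cells also carry, had a log2 value of 9.52 on the tumor brain Gr1- array, against 7.88 on the array labelled blood, and ranked 1 of 12 on the brain array. Its difference was at least 0.49, with the array labelled blood set at background. Cd3e was at 9.84 against 9.26, whereas it ran from 9.24 to 10.23 on the other 10 arrays. Cd3g, another chain of the T cell receptor complex, was below background on both, at 8.84 and 7.98. Il4, a cytokine of type 2 responses that was named after its value was seen, was at 8.96 on the brain array, close to the background of 8.93, and at 7.69 on the array labelled blood.

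The largest negative difference was in a B cell gene. Cd79a, a signalling chain of the B cell receptor, had a log2 value of 6.68 on the tumor brain Gr1- array, against 10.60 on the array labelled tumor blood Gr1-. Its difference of -3.93 was the lowest among the genes above background on either array, and it is -1.67 with the brain array set at background. Pax5, the transcription factor that holds B cell identity, was at 8.16 on the brain array, against 10.68 on the array labelled blood, a difference of -2.52, or -1.75 with the bound. The IgM receptor gene Fcmr was at 7.22 against 10.03, Ms4a1, which encodes CD20, at 6.44 against 9.15, and the low-affinity IgE receptor gene Fcer2a at 7.02 against 9.50. Ebf1, a transcription factor upstream of Pax5, was at 6.46 on the brain array, against 9.05 on the array labelled blood, where it lay just above the background of 9.03. These genes of the B lineage were thus below background on the tumor brain Gr1- array and above it on the other.

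Of 26 measured B cell genes, 14 were at least 2-fold lower and 0 higher on the tumor brain Gr1- array, 8 of the 14 above background on the array labelled blood, against 2.44% of all genes lower, and the list median was -1.08. The 8 members above background on both arrays were all within 2-fold. Ighm, the heavy chain of IgM, was at 10.66 on the brain array, against 11.33 on the array labelled blood, and Cd22, an inhibitory receptor, at 9.90 against 10.36. Cd72, another inhibitory receptor, was at 11.01 on both arrays, and Blnk, an adaptor of B cell receptor signalling, at 10.38 against 10.16. None of the 6 measured plasma cell genes was 2-fold apart, where 2.99% of all genes were, and their median was 0.011.

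The B cell signal set the array labelled blood apart from the brain arrays. The tumor brain Gr1- array had 8 of the 26 genes above background, against 18 on the array labelled blood, and the other 5 brain arrays had 3 to 7. The blood macrophage arrays had 14 to 25, and tumor blood Gr1+ had 6. Cd79a was at 12.51 on tumor blood macrophage low, 11.94 on normal blood macrophage high, 11.66 on normal blood macrophage low and 10.99 on tumor blood macrophage high. Over the 18 genes above background on the array labelled tumor blood Gr1-, its values differed from those of tumor blood macrophage low by a median of -1.58 on the log2 scale. With tumor MP as the reference, 0 B cell genes were 2-fold higher or lower on the tumor brain Gr1- array and the list median was -0.063. Alas2, an enzyme of heme synthesis in red cells, was also lower on the brain array, at 8.36 against 9.47 on the array labelled blood, and ran from 11.64 to 12.71 on the blood macrophage arrays. It was below background on the brain array, and its difference was -0.54 with that array set at background. Of 6 measured red cell and platelet genes, 3 were at least 2-fold lower, against 2.44% of all genes, with Alas2 alone above background among them.

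**Figure D3:**
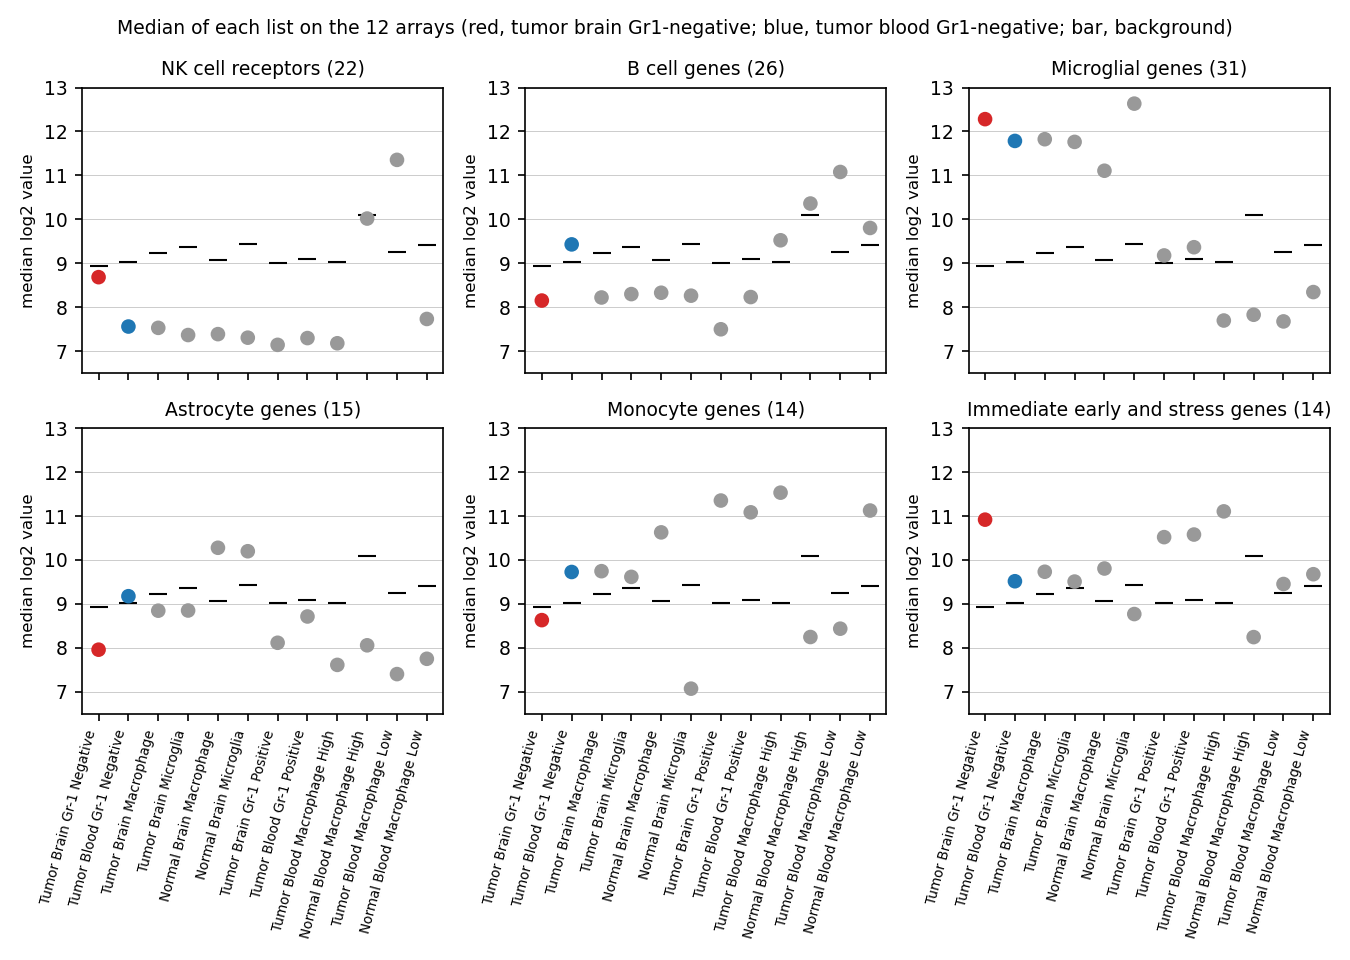
Median log2 value (vertical axes) of 6 gene lists on each of the 12 arrays (horizontal axes), with the tumor brain Gr1- array in red, the array labelled tumor blood Gr1- in blue, the other arrays in gray, a short bar at the background of each array and the number of measured genes in brackets. Microglial genes have medians of 12.28 and 11.78 on the red and blue arrays, NK receptors are at 8.68 and 7.56, and B cell genes are at 8.15 and 9.43.

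Microglial genes were bright on both arrays. All but 1 lay within 2-fold, as did 97.0% of all genes. Of 31 measured members, 28 had positive differences, 1 was at least 2-fold higher on the tumor brain Gr1- array, 0 were lower, and the median log2 difference was 0.35, against -0.061 over all genes. This median ran from 0.11 after quantile normalization to 0.45 with arrays centred on their medians. Tmem119, a membrane protein of microglia, was at 12.56 on the brain array, against 12.17 on the array labelled blood. Sall1, a transcription factor that maintains microglial identity, was at 12.46 against 12.10, and Gpr34, a lysophospholipid receptor, at 9.84 against 9.43. The larger differences were in Crybb1, a crystallin gene that microglia use, at 12.92 against 12.07, and in Upk1b, a tetraspanin of the uroplakin family, at 9.73 against 8.48, where only the brain array was above background. Mef2c, a transcription factor, was at 11.50 on the brain array, against 11.78 on the array labelled blood.

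Set against other brain arrays, the tumor brain Gr1- array was close to tumor MP and below normal MG in these genes. The median difference of the 31 genes was 0.11 between tumor brain Gr1- and tumor MP, from -0.32 for Gpr84 to 0.62 for Upk1b. For the 30 genes above background on the array labelled blood, the median difference from tumor MP was -0.20. From normal MG, the brain array differed by a median of -0.56 and the array labelled blood by -0.86, and on both the lowest was Gpr34, at -1.91 and -2.33.

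Of 15 astrocyte genes, 14 had a lower value on the array that carries the brain label. Sparcl1, a secreted protein of astrocytes, had a log2 value of 9.38 on the tumor brain Gr1- array, against 11.52 on the array labelled tumor blood Gr1-, and Aldoc, an aldolase of astrocytes, 9.07 against 11.11. Slc1a2, the main glutamate transporter of astrocytes, was at 9.92 against 11.90. Of 15 astrocyte genes 8 were at least 2-fold lower and 0 higher, 5 of them above background, against 2.44% of all genes lower, and the median was -1.54, the lowest of the 27 lists. Slc1a3, a second glutamate transporter, was at 10.21 on both arrays.

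Myelin and neuronal genes had fewer members above background. Mobp, a myelin protein, was at 8.97 on the brain array, against 10.77 on the array labelled blood, a difference of -1.80, and Mbp differed by -1.84. Of 18 oligodendrocyte genes 3 were at least 2-fold lower, 2 of them above background, and the median was -0.27. Camk2a, a kinase of excitatory synapses, was at 8.61 on the brain array, below background, against 10.67 on the array labelled blood, a difference of -2.06. Of 16 neuron genes 5 were at least 2-fold lower, with Camk2a alone above background among them, and the median was -0.68. Over the 3 lists together, 16 of 49 genes were at least 2-fold lower and 0 higher, against 2.44% and 0.547% of all genes.

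These genes were higher still on the arrays of normal brain. Mbp was at 12.70 on normal MP and 12.60 on normal MG, at 11.10 and 10.93 on tumor MP and tumor MG, and at 9.41 on tumor brain Gr1+. Of the 15 astrocyte genes, 5 lay above background on tumor brain Gr1- and 8 on the array labelled tumor blood Gr1-, with 12 on normal MP, 11 on normal MG, 4 on tumor brain Gr1+ and 1 on each blood macrophage array. With tumor MP as the reference, 8 astrocyte genes were at least 2-fold lower on the tumor brain Gr1- array and the median was -1.12. Of all 19938 genes, 563 were at least 2-fold lower than on tumor MP. Of the 114 genes that were lower and above background, 62 (54.4%) had their highest value, relative to the background of each array, on normal MP among the 10 other arrays, against 16% of all genes above background on either array. Map2, a microtubule protein of neurons, followed this order, with 6.99 on tumor brain Gr1-, 9.47 on the array labelled blood and 10.41 on normal MP, and so did Scrn1, at 6.98, 9.50 and 10.20. The part of RNA from other brain cells in the differences of other gene groups was not tested.

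**Figure D4:**
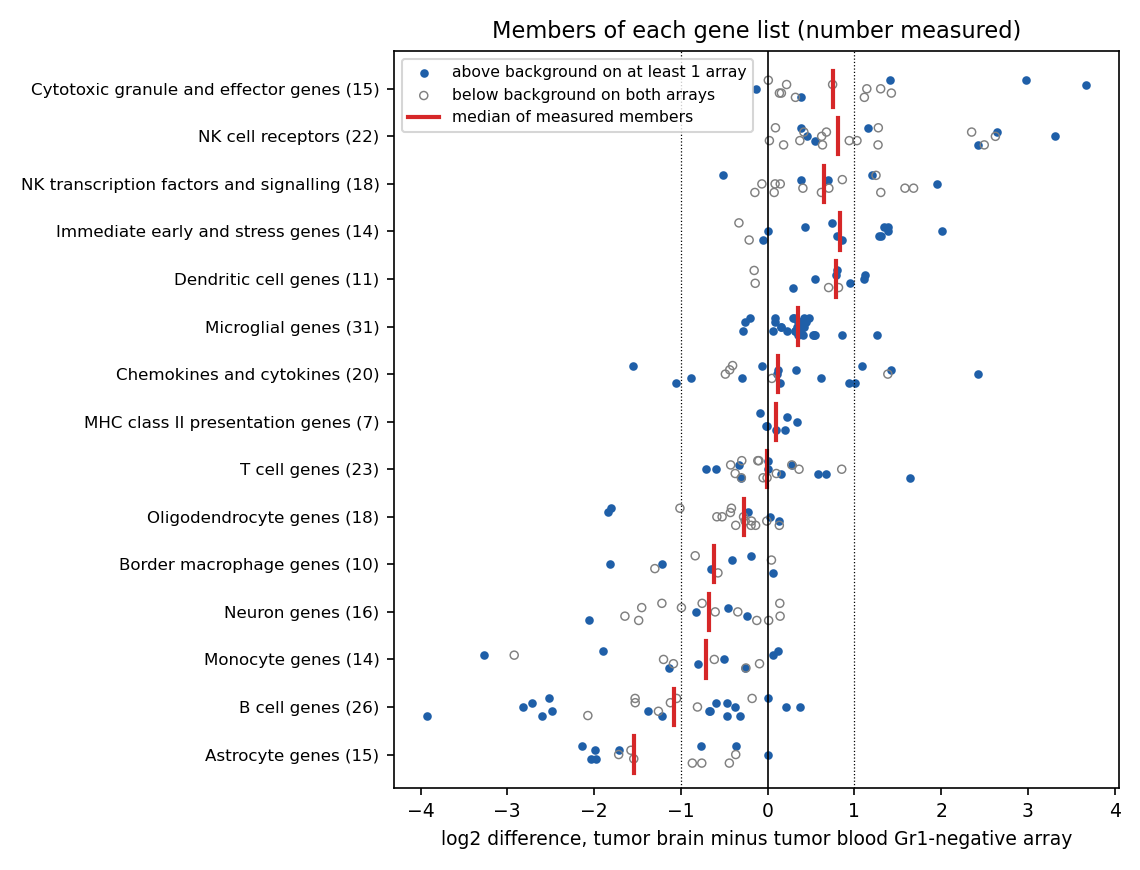
Log2 difference, tumor brain Gr1- minus the array labelled tumor blood Gr1- (horizontal axis), of each measured member of 15 gene lists (vertical axis, number measured in brackets), with filled points for genes above background on at least 1 of these arrays, open points for genes below it on both, red bars at the medians and dotted lines at 2-fold. The median is 0.81 for NK cell receptors, 0.83 for immediate early and stress genes, 0.35 for microglial genes, -1.08 for B cell genes and -1.54 for astrocyte genes.

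Of 14 monocyte genes, 12 had a lower value on the tumor brain Gr1- array. F13a1, a coagulation factor chain made by monocytes, had a log2 value of 6.90 there, against 10.16 on the array labelled tumor blood Gr1-, a difference of -3.27, or -1.23 with the brain array set at background. Fn1, fibronectin, was at 10.17 on the brain array, against 12.07 on the array labelled blood, and lay above background on both. Ccr2, the chemokine receptor that brings monocytes into tissue, was at 9.32 against 10.12, a difference of -0.80. Of 14 monocyte genes 6 were at least 2-fold lower, 3 of them above background, against 2.44% of all genes lower, 0 were higher, and the median was -0.71. With dim values raised to background 2 of the monocyte genes were 2-fold lower. Nr4a1, a transcription factor of patrolling monocytes, was at 10.03 against 9.90.

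Genes of macrophages at the brain's borders had a median of -0.61, with 3 of 10 at least 2-fold lower, against 2.44% of all genes. Of these 3, 2 lay above background on at least 1 array, and with dim values raised to background 1 gene was 2-fold lower. Ms4a7 was at 8.58 on the brain array, against 10.40 on the array labelled blood, and Clec4n, the fungal pattern receptor dectin-2, at 8.08 against 9.30. Both were below background on the brain array, and the Clec4n difference was -0.37 with that array set at background. Msr1, a scavenger receptor, and Tgfbi, a matrix protein of monocyte-derived macrophages, were named after their values were seen, at 7.74 against 9.63 and at 9.96 against 11.78. On tumor MP, Fn1 was at 12.39, Ms4a7 at 10.46, Msr1 at 9.81 and Tgfbi at 12.34, near the array labelled blood. With tumor MP as the reference, 6 monocyte and 3 border macrophage genes were at least 2-fold lower on the tumor brain Gr1- array. The same held for 563 of all 19938 genes. The Gr1+ tumor brain array was above both, at 13.55 for Fn1 and 13.35 for Tgfbi.

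Of 11 dendritic cell genes, 9 had positive differences and 2 were 2-fold higher on the tumor brain Gr1- array. Itgae, the integrin chain CD103 of a class of dendritic cells and of tissue lymphocytes, had a log2 value of 9.72, against 8.6 on the array labelled tumor blood Gr1-, a difference of 1.12 and of at least 0.69. Flt3, the growth factor receptor of dendritic cells, was at 9.69 against 8.58, a difference of 1.11 and of at least 0.66, so neither was 2-fold apart with the dim array set at background. Ccl17, a chemokine of dendritic cells, was at 9.91 against 8.96, and Ccr7, the receptor that guides migration to lymph nodes, at 10.70 against 9.90. The background share is 0.547% of all genes higher, 0 of the list were lower, and the median was 0.79, or 0.66 with dim values raised to background. Of the 11, 7 lay above background on the brain array, against 1 on the array labelled blood, 5 on normal MP and 0 to 2 on the other 9. Xcr1 and Clec9a, receptors of cross-presenting dendritic cells, were below background on both arrays, at 8.42 and 8.58 for Xcr1 and 7.65 and 7.79 for Clec9a. Set against tumor MP, 7 of the 11 were at least 2-fold higher, against 140 of all 19938 genes, with a median of 1.29.

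Immediate early genes, which cells switch on within minutes of a stimulus, had 10 of 14 members with a higher value on the tumor brain Gr1- array. Fosb, a subunit of the AP-1 transcription factor, had a log2 value of 11.48, against 9.47 on the array labelled tumor blood Gr1-, a difference of 2.01 with both values above background. Dusp1, a phosphatase that turns off MAP kinases, was at 11.91 against 10.52, Egr1, a zinc finger factor, at 12.60 against 11.26, Fos at 11.91 against 10.59 and Jun at 12.01 against 10.72. The heat shock gene Hspa1a was at 9.55 against 8.16, below background on the array labelled blood, a difference of at least 0.52. Of 14 genes 6 were at least 2-fold higher, all 6 above background on at least 1 array, against 0.547% of all genes, 0 were lower, and the median was 0.83. With dim values raised to background 5 were 2-fold higher. Junb and Egr3 were at 9.53 and 9.29 on the brain array, against 9.54 and 9.33 on the array labelled blood.

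The Dusp1 promoter is shown because it is one of 2 in this list of 11 promoters, with that of Btg2, to hold the cAMP response element TGACGTCA, which 1.88% of the 27025 promoters hold. It lies at chr17:26508423-26508722 on the minus strand of GRCm38.p6, and capitals mark the element, which reads alike on both strands.
Dusp1: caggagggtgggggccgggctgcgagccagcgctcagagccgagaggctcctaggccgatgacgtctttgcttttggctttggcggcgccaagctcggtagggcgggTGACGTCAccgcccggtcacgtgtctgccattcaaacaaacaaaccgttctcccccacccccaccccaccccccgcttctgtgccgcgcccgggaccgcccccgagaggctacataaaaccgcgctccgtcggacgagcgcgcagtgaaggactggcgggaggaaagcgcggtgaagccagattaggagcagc
The octamer ATGCAAAT, the last of 3 motifs searched on both strands, was in 3 of 20 promoters of B cell genes (Blnk, Vpreb3 and Cnr2) and in 1.75% of all. None of the 3 motifs contains another.

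Values of the immediate early genes varied widely over the series. Fosb was at 8.23 on normal MG, and among the other 10 arrays only tumor blood macrophage high exceeded the tumor brain Gr1- value of 11.48. Dusp1 reached 13.83 on tumor blood macrophage high. Egr1 was highest of the 12 arrays on tumor brain Gr1-, with 11.63 on tumor blood macrophage high next to it. With tumor MP as the reference, 6 of the 14 genes were at least 2-fold higher on the same tumor brain Gr1- array, and the median was 0.84. The same held for 140 of all 19938 genes.

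Chemokines and cytokines went in both directions. Ccl24, an eosinophil attractant, had a log2 value of 9.56 on the tumor brain Gr1- array, against 7.13 on the array labelled tumor blood Gr1-, a difference of 2.43 and of at least 0.53. It reached 12.59 on tumor brain Gr1+. Ccl3 and Ccl4, macrophage inflammatory proteins, were at 12.60 and 10.56 on the brain array, against 11.18 and 9.47 on the array labelled blood, and were higher by at least 1 log2 unit than on any other of the 12 arrays. Il1a was at 11.29 against 10.28. Cxcl13, which attracts B cells, was at 10.11 on the brain array, against 11.67 on the array labelled blood, and Cxcl14 at 8.17 against 9.23. The Cxcl14 difference was -0.29 with the brain array set at background. Of 20 genes 5 were at least 2-fold higher, 4 of them above background, and 2 were lower, against 0.547% and 2.44% of all genes, with a median of 0.11. After quantile normalization, and likewise with dim values raised to background, the chemokines and cytokines had 3 genes higher and 1 lower.

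No member of several pathways that activated macrophages use was 2-fold apart, where 2.99% of all genes were. These were 7 class II and 7 class I antigen presentation genes, 18 interferon-stimulated genes, 23 cell division genes and 14 hypoxia and glycolysis genes. At the share of all genes, lists of these sizes would hold few or none, so the absence is not particular to these pathways. Median differences were 0.098 for class II, 0.16 for class I, 0.29 for the interferon-stimulated genes, -0.23 for cell division and 0.15 for hypoxia and glycolysis. The sign of the class II and class I medians turned with the scaling, from -0.075 to 0.19 and from -0.034 to 0.25. H2-Ab1, a class II chain, was at 12.72 on the brain array, against 12.49 on the array labelled blood, and Ifit3, an interferon-induced antiviral gene, at 10.62 against 9.89. With 1 array each, these values do not show that the populations were alike.

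Single genes stood out in the remaining lists. Rgs1, a brake on chemokine receptor signals, had a log2 value of 10.32 on the tumor brain Gr1- array, against 8.97 on the array labelled tumor blood Gr1-, and Igf1, a growth factor of activated microglia, 9.96 against 8.91. Pdcd1lg2, which encodes the checkpoint ligand PD-L2, was at 9.59 against 8.55, whereas Cd274, which encodes PD-L1, was at 10.29 against 10.02. Of 12 checkpoint genes 1 was at least 2-fold higher, against 0.547% of all genes, and 11 had positive differences, with a median of 0.51. With dim values raised to background, 0 checkpoint genes were 2-fold higher. Flt1, a VEGF receptor, was the only one of 15 endothelial and mural genes at least 2-fold apart, at 9.24 against 8.21. Of all genes, 2.99% were 2-fold apart. The endothelial and mural median of -0.041 turned to 0.056 under another scaling. The Flt1 difference was 0.21 with the array labelled blood set at background. Cd55, a complement inhibitor, was at 6.99 on the brain array, below background, against 9.17 on the array labelled blood.

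Genes outside the lists made up 31 of the 58 higher and 89 of the 114 lower genes above background. Adamts1, a secreted metalloprotease, had a log2 value of 10.58 on the tumor brain Gr1- array, against 8.95 on the array labelled tumor blood Gr1-, and was at most 8.79 on the other 10. The histone genes H3c4 and H2bc8 were at 10.19 and 10.31 on the brain array, against 8.52 and 8.81 on the array labelled blood. Probe sets of histone genes can share signal with their near-identical copies, so these values are uncertain. The tumor brain Gr1- array was the highest of the 12 for 833 genes above its background, 10 of them by at least 1 log2 unit, namely H3c4, Adamts1, Rgs1, H2bc8, Ccl3, Il4, Itgae, Ccl4, Snord14e and Icos. The array labelled blood was the highest for 313 genes and for 0 by that margin.

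Among the 15 largest differences in each direction outside these groups, Snora52 and Snord14e, small nucleolar RNAs, were at 10.98 and 10.59 on the brain array, against 9.06 and 9.07 on the array labelled blood. Car5b, a mitochondrial carbonic anhydrase, was at 8.95, close to background, against 7.42. In the other direction Scd1, a desaturase that makes monounsaturated fatty acids, was at 7.46 on the brain array, against 9.81 on the array labelled blood, Tmem47 at 7.05 against 9.46 and the potassium channel gene Kcnt2 at 6.73 against 9.06. Gm7982 was at 8.02 against 11.01, 3110040M04Rik at 7.38 against 9.71 and Vmn1r180, a vomeronasal receptor gene, at 6.51 against 9.15. These last 3 ranked 12 of 12 on the brain array and were highest on normal blood macrophage high, at 12.52, 11.01 and 10.19, the array with the highest background in the series (10.09) and 11.2% of genes above it.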

How the data were processed

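RNA of flow-sorted cells was hybridized to Mouse Gene ST arrays of Affymetrix, with a single array for each condition. Expression Console was used by the authors for background correction, normalization and summary, and RMA is named in the submitters' processing notes without a version. The authors deposited log2 values, which were not rescaled here. The genome build behind the probe annotation is not given in the sources used here.

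Of 28944 probe sets, 21789 had 1 gene symbol and were kept, while 1621 with more symbols and 5534 with none were dropped. A gene with more than 1 probe set (999 genes) took the brightest over the 12 arrays. Genes at least 2-fold apart were counted without p-values, although the methods name adjusted ones, since 1 array a group gives none. By rule the text names 4 marker genes, the 15 largest differences each way above background and at most 6 members of a list, and any further gene was chosen after its values were seen. The members and the 27 lists (449 genes, 412 measured) were chosen with earlier results of these data known. 1 gene that the study's paper discusses, which is none of the genes named, is not reported here. Alternatives were other scalings, probe set means, other backgrounds, a floor at background, other fold thresholds and another reference array. The calling step was tested on simulated data with shifts beyond the 2-fold threshold and noise set from the olfactory receptor genes. That simulation held no floor at background, no shift of a whole array and no mixed cells, so it does not show how the calls fare under these. Promoters were matched by gene symbol. The tools were Python 3.11.15 (numpy 2.4.6, pandas 2.3.3) and, for cyclic loess, R 4.3.3 (limma 3.58.1).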

Additional observations from a re-analysis of the deposited data

How the results depend on the processing

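Counts of genes at least 2-fold apart moved with the background and the threshold. The 109 higher genes became 58 with only genes above background, 70 with a background at the 90th percentile, 70 with a background from 163 vomeronasal receptor genes, 29 with dim values raised to background, 164 after quantile and 189 after cyclic loess normalization, 682 at a threshold of 1.5-fold and 14 at 4-fold. The 487 lower genes became 114 with only genes above background, 147 at the 90th percentile, 125 with vomeronasal receptor genes, 45 with dim values raised, 312 after quantile normalization, 1582 at 1.5-fold and 73 at 4-fold. The B cell median of -1.08 was -0.47 with dim values raised to background and -0.063 with tumor MP as the reference array, an alternative chosen after seeing the data. The astrocyte median of -1.54 was -0.76 with dim values raised to background. With dim values raised the medians of the NK cell lists fell too, to 0.39 for NK cell receptors in place of 0.81, 0.39 for cytotoxic genes in place of 0.75 and 0.068 for NK transcription factors and signalling in place of 0.66. The genes at least 2-fold higher were then 1 in place of 10 for NK cell receptors, 2 in place of 7 for cytotoxic genes, 0 in place of 6 for NK transcription factors and signalling and 0 in place of 2 for dendritic cell genes, and those lower were 4 in place of 14 for B cell genes, 3 in place of 8 for astrocyte genes and 2 in place of 6 for monocyte genes. Raising dim values drops genes below background on both arrays and shortens every difference with a dim side. Of 67 named genes, 67 kept their direction under centring, quantile, cyclic loess and probe set means, and 66 did with dim values raised to background, where 32 of 66 stayed 2-fold apart. The exception was Car5b, at -0.081 in place of 1.53. Leaving out a replicate was not possible. No paired analysis was possible because each group has 1 array. The precision is limited by 1 array per condition and, for most genes, by a signal near background.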
